A study of Mus musculus with 14 samples.

Results

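The mucins are the glycoproteins that coat and protect the surface of the gut. They were followed here as 8 named genes out of the 18820 mouse genes with a probe set of their own on the arrays. The 8 genes were chosen by name, with earlier results of these data known. The paper had already named Muc1, Muc2, Muc6 and Muc13 among the markers that changed on these arrays. They are the secreted, gel-forming mucins Muc2, Muc5ac, Muc5b and Muc6, and the membrane mucins Muc1, Muc4, Muc13 and Muc20. Each was read by 1 probe set that is annotated to no other gene.

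RNA of 14 samples of mouse gut epithelium in culture was measured, 1 array per sample, in 7 groups. In all, 4 groups were whole organoids (closed epithelial cultures grown from glands or crypts): stomach (Sto) organoids in Sto medium (n = 1) or in small intestinal (SI) medium (n = 2), and SI organoids in either Sto medium (n = 1) or SI medium (n = 3). The remaining groups were stem cells (SCs), sorted as the cells with the highest Lgr5-EGFP signal out of clonal organoids: Cdx2null SI SCs (n = 2), control Sto SCs (n = 2) and control SI SCs (n = 3). All animals, controls included, were Cdx2-/fl, with a null and a floxed allele of the intestinal transcription factor Cdx2, and carried the Lgr5-EGFP-Ires-CreERT2 knock-in, whose Cre is made only in Lgr5-positive stem cells. They were adults of a C57Bl6j/CBA mixed background. Cdx2null cells came from SI organoids treated with 4-hydroxytamoxifen, which activates the Cre and leaves no functional Cdx2 allele, and were grown from single cells. Controls came from organoids without this treatment, so treatment and loss of Cdx2 cannot be told apart. SI medium held Egf, Noggin and R-spondin, and Sto medium also Wnt3a, Fgf10 and gastrin. The paper also used SI medium to let Sto organoids differentiate, and detected Muc5ac there in Cdx2null SI organoids and control Sto organoids. The methods give Sto medium for 2 samples of each kind of SC, which leaves 1 of the 3 control SI SC arrays without a stated medium. The methods call the samples of a condition independent, without saying whether they came from different animals, so p-values measure the spread between these samples, which may not be that between animals.

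Gel-forming mucins are very long proteins that secretory cells load with O-linked sugars, store in granules and release, after which they swell into mucus. Membrane mucins stay anchored in the apical membrane, where their sugar-covered outer part forms the glycocalyx and their short inner part can take part in signalling. Stomach and intestine use different mucins: Muc5ac is made by the pit cells of the gastric surface, Muc6 by the neck and pyloric gland cells beneath them, and Muc2 by the goblet cells of the intestine. Muc1 is a membrane mucin of many secretory epithelia, and Muc13 of the intestinal brush border.

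Values are log2 expression values, on which 1 unit is a doubling, and a gene was called changed at a fold of 2 or more with an adjusted p under 0.05. The median of an array lay between 4.72 and 5.05, and genes under it were read near the background of the array, so folds that reach into that range are compressed. Some libraries stood apart. The library labelled SI organoids SI med 1 had Cdx2 at 5.52, against 9.92 and 9.67 on the other arrays of its group, which goes against its label. Cdx2 was at 8.41 in the library labelled Cdx2null SI SCs 1 and at 4.88 in that labelled Cdx2null SI SCs 2, against 8.94 to 10.05 in control SI SCs. The methods state that the Cdx2 probes also cover a part of the gene that the deletion leaves in place. These values therefore do not check the deletion, and the difference between both Cdx2null libraries was not tested. Xist was at 3.35 and 3.77 on control SI SCs 1 and 3 and at 3.23 on Sto organoids in Sto medium, against 10.18 or more on the other 11 arrays. Both sexes are thus present within control SI SCs, and Sto organoids in Sto medium differed in sex from those in SI medium. On control SI SCs 3 and on array 3 of SI organoids in SI medium the values had been rounded before the log was taken. The sorted cells carried Lgr5 at 10.77 to 11.56, while Sto organoids in SI medium had it at 4.20 and 4.32. Markers of mesenchyme averaged 4.36 to 4.85 on every array, of immune cells at most 4.01 and of endothelium at most 3.72.

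The genes lie in a few places of the genome. In the RefSeq annotation Muc6, Muc2, Muc5ac and Muc5b follow one another on chromosome 7 with no other coding gene between them, Muc4 and Muc20 are neighbours on chromosome 16, Muc13 lies elsewhere on chromosome 16 and Muc1 on chromosome 3. The 250 bases before the annotated start are shown for 4 mucins: Muc1, Muc6 and Muc13, which were called between the control SCs of both organs, and Muc2, the gel-forming mucin of the intestine, which was called in no SC comparison. They are RefSeq sequences of build GRCm38.p6, each in the direction of its gene, with ATAAA or its reverse complement TTTAT, the core letters of the sites that Cdx proteins bind, in capitals. The windows are chr3:89228806-89229055 (plus strand) for Muc1, chr7:141655394-141655643 (minus strand) for Muc6, chr7:141690090-141690339 (plus strand) for Muc2, and chr16:33793787-33794036 and chr16:33794239-33794488 (plus strand) for the upstream and the downstream of both annotated starts of Muc13.
Muc1: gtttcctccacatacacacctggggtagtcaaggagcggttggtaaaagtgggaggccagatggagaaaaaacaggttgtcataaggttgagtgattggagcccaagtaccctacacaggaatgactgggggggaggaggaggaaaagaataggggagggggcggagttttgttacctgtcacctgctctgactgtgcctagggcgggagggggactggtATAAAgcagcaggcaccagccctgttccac
Muc6: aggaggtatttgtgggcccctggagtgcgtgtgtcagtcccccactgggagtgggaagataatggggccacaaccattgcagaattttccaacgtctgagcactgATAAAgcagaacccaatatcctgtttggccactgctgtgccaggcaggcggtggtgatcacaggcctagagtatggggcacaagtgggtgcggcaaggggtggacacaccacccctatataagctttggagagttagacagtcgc
Muc2: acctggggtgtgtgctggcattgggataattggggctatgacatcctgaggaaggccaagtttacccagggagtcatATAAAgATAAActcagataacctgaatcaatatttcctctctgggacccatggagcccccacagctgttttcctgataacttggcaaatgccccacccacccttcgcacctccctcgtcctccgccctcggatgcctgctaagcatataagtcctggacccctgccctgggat
Muc13, upstream start: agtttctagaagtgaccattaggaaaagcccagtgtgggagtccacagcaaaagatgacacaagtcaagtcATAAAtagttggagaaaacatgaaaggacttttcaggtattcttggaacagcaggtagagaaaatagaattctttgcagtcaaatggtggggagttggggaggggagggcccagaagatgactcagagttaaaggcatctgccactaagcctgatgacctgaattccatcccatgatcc
Muc13, downstream start: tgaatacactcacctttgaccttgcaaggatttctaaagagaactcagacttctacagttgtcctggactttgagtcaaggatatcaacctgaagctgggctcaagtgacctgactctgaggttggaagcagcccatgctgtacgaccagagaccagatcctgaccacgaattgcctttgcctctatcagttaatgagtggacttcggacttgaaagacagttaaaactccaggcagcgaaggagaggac
The letters stand once before Muc1, 30 bases from the start, once before Muc6 (145 bases), 2 times before Muc2 (173 and 167 bases), once before the upstream start of Muc13 (179 bases) and nowhere in the window of its downstream start. Muc4 and Muc20, which were called in no comparison, also had a window, with the letters once before Muc4 (35 bases, within TATAAA) and nowhere before Muc20. The match of Muc1 and the farther one of Muc2 lie within TATAAA, the letters of a TATA box. ATAAA or TTTAT occurs in 37.3% of the 32851 RefSeq promoter windows of this length, on either strand, and TATAAA or its reverse complement TTTATA in 12.4%. Such a match describes letters only. Promoter windows were at hand for 6 of the 8 genes and not for Muc5ac and Muc5b.

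**Figure D1:**
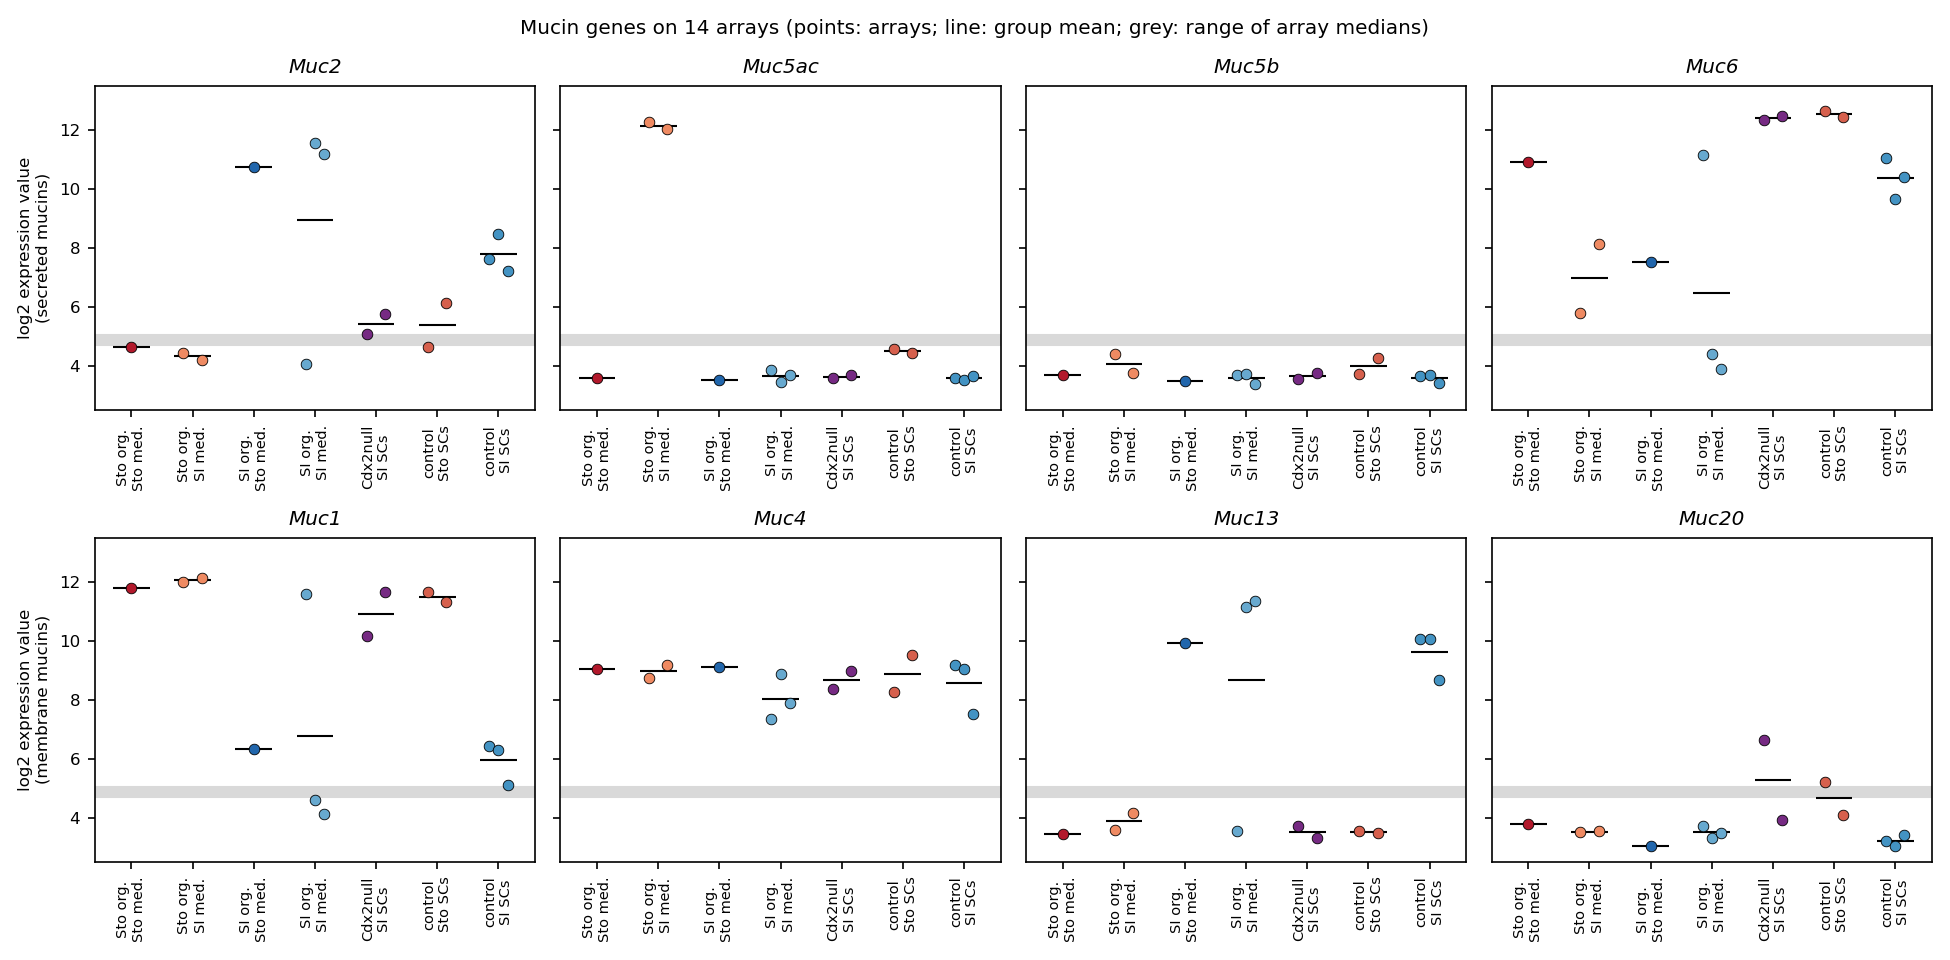
Log2 expression values of the 8 mucins (vertical axes) on each of the 14 arrays, by group (horizontal axes; org., organoids; med., medium), with secreted mucins above and membrane mucins below. Points are arrays, lines are group means and the grey band is the range of array medians. Muc1 lies high and Muc13 low in the stomach groups and in Cdx2null SI SCs, Muc5ac is above the band on the 2 arrays of Sto organoids in SI medium alone, and 1 library of SI organoids, labelled SI med 1, lies with the stomach arrays for Muc1, Muc2, Muc6 and Muc13.

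Over all 14 arrays the mucins fell into genes that varied strongly and genes that hardly did. Muc5ac spanned 8.81 log2 units between its lowest and highest array, Muc6 8.74, Muc13 8.04, Muc1 8.01 and Muc2 7.51, which placed each of them at the 99.7th percentile of all genes or above. Muc20 spanned 3.57 and Muc4 2.15. Muc5b, a gel-forming mucin best known from airways and salivary glands, spanned 1.00 and was under the array median on all 14 arrays.

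The order of the group means differed between genes. For Muc2 it ran from SI organoids in Sto medium (10.76) over SI organoids in SI medium (8.95), control SI SCs (7.79), Cdx2null SI SCs (5.42), control Sto SCs (5.40) and Sto organoids in Sto medium (4.65) to Sto organoids in SI medium (4.33). The arrays of Cdx2null SI SCs and control Sto SCs overlapped in this order, Sto organoids in Sto medium lay within the range of control Sto SCs, and SI organoids in SI medium (4.07 to 11.58) overlapped with both of their neighbours. For Muc6 control Sto SCs (12.55) and Cdx2null SI SCs (12.42) stood highest and overlapped, and Sto organoids in Sto medium (10.92) lay within the range of control SI SCs. For Muc1 the order was Sto organoids in SI medium (12.06), Sto organoids in Sto medium (11.77), control Sto SCs (11.49), Cdx2null SI SCs (10.91), SI organoids in SI medium (6.77), SI organoids in Sto medium (6.33) and control SI SCs (5.94). Control Sto SCs overlapped with Cdx2null SI SCs here, as did SI organoids in Sto medium with control SI SCs. SI organoids in SI medium (4.11 to 11.59) overlapped with both of their neighbours, and with control SI SCs and control Sto SCs. For Muc13, SI organoids in Sto medium (9.93) came first, then control SI SCs (9.60), then SI organoids in SI medium (8.68), all above the 4 groups of stomach or Cdx2null samples, whose means lay between 3.46 and 3.88. The lowest array of SI organoids in SI medium, at 3.57, lay among those groups.

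Setting Cdx2null SI SCs against control SI SCs asks which mucins differed between treated stem cells without Cdx2 and untreated controls. The calls were both membrane mucins and ran in opposite directions, as Muc1 rose 31.3-fold and Muc13 fell 67.9-fold. The other 6 mucins were not called. In all, 2 of 8 mucins were called, beside 1.52% of all genes. The median log2 difference was 0.08 over the 8 mucins and 0.03 over all genes. These are bulk samples, in which fewer cells of a type and less RNA per cell cannot be told apart.

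Among the secreted mucins, Muc2 was at 5.08 and 5.77 in Cdx2null SI SCs, against 7.64, 8.49 and 7.24 in control SI SCs. The groups did not overlap, and the difference of -2.36 (SE 0.53) did not pass in limma's fit (adjusted p = 0.103). With the replicate numbers as a block in the fit Muc2 was called. Only control SI SCs have a number 3, so the block takes up that array and the difference rests on 2 arrays per group. Muc6 was at 12.34 and 12.49 in Cdx2null SI SCs and at 11.05, 9.66 and 10.41 in control SI SCs. Every Cdx2null array was above every control array, the difference was 2.04 (SE 0.37) and the limma adjusted p of 0.0527 lay just over the threshold. Without control SI SCs 1 Muc6 was called (2.38, adjusted p = 0.0286), and also without control SI SCs 2 (1.68, adjusted p = 0.0431). Muc5ac was at 3.59 and 3.70 in Cdx2null SI SCs, against 3.61, 3.52 and 3.67 in control SI SCs, all under the array median. Muc5b lay under it too, at 3.56 and 3.79 in Cdx2null SI SCs and at 3.43 to 3.70 in control SI SCs. For both the groups overlapped, so that no expression of either could be read in SCs of intestinal origin.

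Among the membrane mucins, Muc1 was at 10.15 and 11.67 in Cdx2null SI SCs, against 6.42, 6.30 and 5.10 in control SI SCs. The groups lay far apart, with means of 10.91 ± 1.07 (SD, n = 2) and 5.94 ± 0.73 (SD, n = 3), and the rise was 4.97 on the log2 scale (SE 0.54, limma adjusted p = 0.00782). It was 18.5-fold without the library labelled Cdx2null SI SCs 2 and 52.9-fold without the library labelled Cdx2null SI SCs 1, and was called both times. Wherever leaving out an array left a group or medium with 1 array, that array was assumed to vary like the other groups. The 1 control SI SC array with high Xist, as on both Cdx2null arrays, had Muc1 at 6.30, and with a term for such arrays the difference was 4.61 and its adjusted p 0.0625. Muc13 was at 3.73 and 3.30 in Cdx2null SI SCs, at the level of background, and at 10.06, 10.07 and 8.69 in control SI SCs. It fell by 6.09 on the log2 scale (SE 0.42, limma adjusted p = 0.00181), and was called without each of the 7 SC arrays in turn, with 57.8- to 93.4-fold. Because Cdx2null SI SCs lay under the array median, this fold is compressed.

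Muc4, the membrane mucin that binds the receptor ErbB2, was at 8.37 and 8.97 in Cdx2null SI SCs and at 9.17, 9.04 and 7.53 in control SI SCs. The groups overlapped, and the 95% interval of the difference ran from -1.27 to 1.45. Muc20, a membrane mucin found to bind the receptor Met in human cells, was at 6.63 and 3.91 in Cdx2null SI SCs, against 3.20, 3.06 and 3.42 in control SI SCs. The groups did not overlap, but the difference of 2.04 (SE 0.73, adjusted p = 0.323) rested on 1 library. It was 1.61-fold without the library labelled Cdx2null SI SCs 1 and 10.5-fold without the library labelled Cdx2null SI SCs 2, where it was called (adjusted p = 0.0370) with 1 Cdx2null array left.

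**Figure D2:**
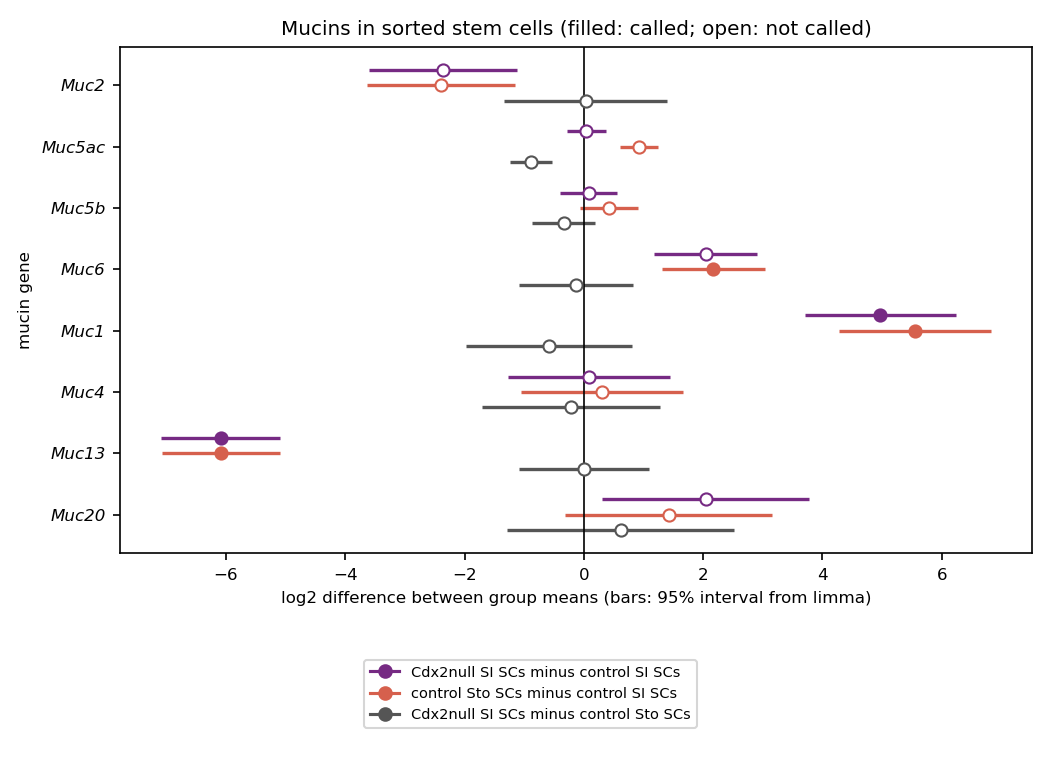
Log2 differences between the means of sorted SC groups (horizontal axis) for each mucin (vertical axis), with bars for the 95% interval from limma, filled points for called mucins and open points for mucins not called. Muc1 and Muc13 lie far from 0 in both comparisons with control SI SCs, and all 8 mucins lie within 1 unit of 0 between Cdx2null SI SCs and control Sto SCs.

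Control Sto SCs against control SI SCs gives the difference between the organs that the Cdx2null cells can be read against. Both comparisons share the control SI SC arrays. Muc1 was 46.9-fold and Muc6 4.50-fold higher in control Sto SCs and Muc13 was 67.9-fold lower. In all, 3 of 8 mucins were called, beside 2.86% of all genes.

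Muc6 was at 12.65 and 12.44 in control Sto SCs, against 11.05, 9.66 and 10.41 in control SI SCs. The groups did not overlap and the difference was 2.17 (SE 0.37, limma adjusted p = 0.0293). It lost its call without control Sto SCs 1 (adjusted p = 0.168), without control Sto SCs 2 (adjusted p = 0.133) and without control SI SCs 3 (adjusted p = 0.0931), with 4.19-, 4.83- and 4.56-fold. Control SI SCs thus also held Muc6 far above the array median. Muc2 was at 4.64 and 6.16 in control Sto SCs, against 7.24 to 8.49 in control SI SCs. The arrays did not overlap, with a difference of -2.39 (SE 0.53) that did not pass in limma (adjusted p = 0.0654). With the replicate numbers as a block in the fit, which again takes up control SI SCs 3, Muc2 was called and Muc6 was not. Muc5ac was at 4.60 and 4.45 in control Sto SCs and at 3.52 to 3.67 in control SI SCs. All 5 values were under the array medians and the difference of 0.93 (SE 0.14, limma adjusted p = 0.0173) was under 2-fold, so it was not called. Muc5b was at 3.74 and 4.29 in control Sto SCs and at 3.43 to 3.70 in control SI SCs, at background in both.

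Muc1 was at 11.66 and 11.33 in control Sto SCs, against 5.10 to 6.42 in control SI SCs, without overlap. The difference was 5.55 (SE 0.54, limma adjusted p = 0.00410). Muc13 was at 3.56 and 3.48 in control Sto SCs, against 8.69 to 10.07 in control SI SCs, a difference of -6.08 (SE 0.42, limma adjusted p = 0.00138). Both were called without each of the 7 SC arrays in turn, Muc1 with 35.0- to 55.4-fold and Muc13 with 57.7- to 93.3-fold. Both control Sto SC arrays had high Xist (11.85 and 11.31), but in control SI SCs only array 2 did, with Muc1 at 6.30 and Muc13 at 10.07. Organ and sex therefore cannot be fully told apart in this comparison. Muc4 was at 8.25 and 9.52 in control Sto SCs, around the values of control SI SCs. Muc20 was at 5.22 and 4.09 in control Sto SCs, against 3.06 to 3.42 in control SI SCs, and its difference of 1.43 (SE 0.73) did not pass in limma (adjusted p = 0.441).

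Cdx2null SI SCs were then set directly against control Sto SCs. In limma 0 of 8 mucins were called, beside 0% of all genes, with 1 mucin and 286 genes at an unadjusted p under 0.05. The methods' t-test with the 2-fold threshold called 0 mucins, and 15 genes before adjustment. Muc1 was at 10.15 and 11.67 in Cdx2null SI SCs and at 11.66 and 11.33 in control Sto SCs, a difference of -0.58 with a 95% interval from -1.97 to 0.80. For Muc6 the difference was -0.13 (-1.08 to 0.82) and for Muc13, at background in both groups, the interval ran from -1.09 to 1.09. These intervals leave room for differences of over 2-fold in either direction for Muc13, and in 1 direction for Muc1 and Muc6. The mucin at an unadjusted p under 0.05 was Muc5ac, at 3.59 and 3.70 in Cdx2null SI SCs and 4.60 and 4.45 in control Sto SCs. Its groups did not overlap and differed by -0.88 (SE 0.15, unadjusted p = 5.7e-04, adjusted p = 1 in limma).

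Whole organoids contain the differentiated cells that the sort leaves out. Sto organoids had Muc1 at 11.77 in Sto medium and at 12.00 and 12.12 in SI medium, and SI organoids had it at 6.33 in Sto medium and at 11.59, 4.62 and 4.11 in SI medium. Muc2 was at 4.65, 4.45 and 4.22 in Sto organoids, against 10.76 in SI organoids in Sto medium and 4.07, 11.58 and 11.21 in SI organoids in SI medium. Muc13 was at 3.46, 3.59 and 4.17 in Sto organoids, against 9.93 in SI organoids in Sto medium and 3.57, 11.13 and 11.34 in SI organoids in SI medium. In each case the value on the stomach side among SI organoids was that of the library labelled SI organoids SI med 1. The groups overlapped through that library for Muc2 and Muc13, and for Muc1 that library lay just under the Sto organoids.

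Fitted with origin and medium as terms on the 7 organoid arrays, limma called 0 of 8 mucins between Sto and SI organoids, beside 0% of all genes, with 4 mucins and 2595 genes at an unadjusted p under 0.05. Muc1 differed by 5.33 (SE 1.86, adjusted p = 0.317), Muc2 by -5.06 (SE 1.91, adjusted p = 0.338) and Muc13 by -5.29 (SE 2.00, adjusted p = 0.339). The fitted difference of Muc5ac was 63.9-fold, Sto over SI organoids (SE 1.58 on the log2 scale, adjusted p = 0.270). Without the library labelled SI organoids SI med 1, Muc1 was 123-fold higher in Sto organoids (6.95, adjusted p = 0.00409), Muc2 107-fold lower (-6.74, adjusted p = 8.2e-04) and Muc13 133-fold lower (-7.06, adjusted p = 8.2e-04). All of these were called, beside 371 of 18820 genes.

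Muc5ac set Sto organoids in SI medium apart from the other stomach cultures. Sto organoids had it at 3.59 in Sto medium, against 12.28 and 12.03 in SI medium, and the 4 SI organoid arrays lay between 3.47 and 3.88. Sto organoids in Sto medium thus lay at the background level of SI organoids, and both arrays in SI medium lay far above every other array of the series. Among the arrays in SI medium alone Muc5ac was 356-fold higher in Sto than in SI organoids (8.47, limma adjusted p = 0.00209). Leaving out either array in Sto medium must give this same value, since the medium term then takes up the other array.

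Sto medium against SI medium could be compared in organoids only with 1 array of each origin in Sto medium. Fitted over both origins, limma called 0 of 8 mucins, beside 0% of all genes, with 0 mucins and 1816 genes at an unadjusted p under 0.05. Muc5ac differed by -4.11 (SE 1.73, adjusted p = 0.530), which averages stomach cultures, where it differed, with SI cultures, where it did not leave background. Without SI organoids in Sto medium, the difference was -8.57 (379-fold lower). It then rested on 1 array in Sto medium, whose spread was taken from the arrays in SI medium. Xist was at 3.23 on that array, against 11.55 and 11.39 on Sto organoids in SI medium. Medium and sex therefore cannot be told apart in Sto organoids. Without Sto organoids in Sto medium the difference was -0.14. In Sto organoids Muc6 was at 10.92 in Sto medium, against 5.82 and 8.15 in SI medium. In SI organoids it was at 7.52 in Sto medium and at 11.16, 4.41 and 3.91 in SI medium, where 11.16 was the library labelled SI organoids SI med 1. The fitted difference of 2.40 (SE 2.14, adjusted p = 0.817) did not pass. Muc4 lay between 7.36 and 9.18 on all organoid arrays, and Muc5b and Muc20 stayed at 4.41 and 3.78 or less.

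**Figure D3:**
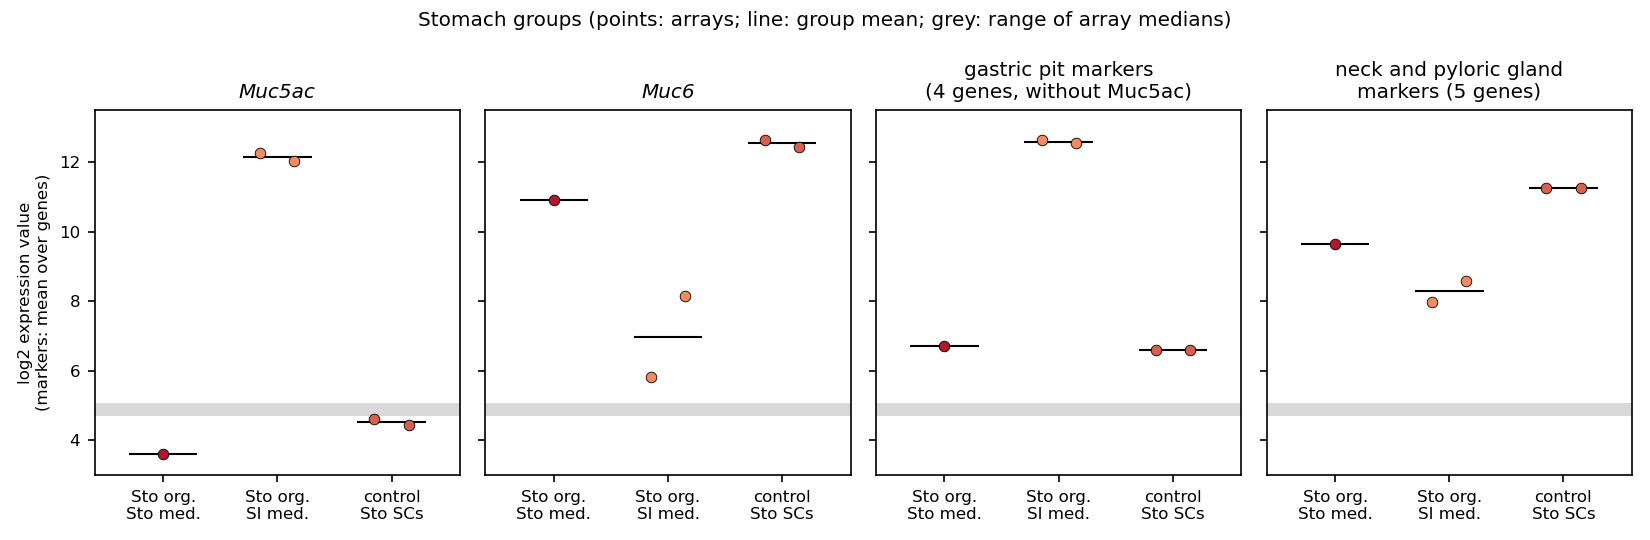
Muc5ac, Muc6, the mean of 4 gastric pit markers (Gkn1, Gkn2, Tff1 and Psca) and the mean of 5 neck and pyloric gland markers (Tff2, A4gnt, Aqp5, Cblif and Bpifb1) as log2 expression values (vertical axes) in the 3 stomach groups (horizontal axes; org., organoids; med., medium). Points are arrays, lines are group means and the grey band is the range of array medians. Muc5ac is at 12.03 and 12.28 on the arrays of Sto organoids in SI medium and at 4.60 or less on the other 3, where Muc6 is at 10.92 or more.

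Organoids were also set against the sorted SCs of the same organ. Sto organoids in SI medium had Muc5ac at 12.28 and 12.03, against 4.60 and 4.45 in control Sto SCs, a 198-fold difference (7.63, SE 0.17, limma adjusted p = 4.6e-08). The SE is pooled over all groups in the fit of this comparison. Since Muc5ac was under the array median on 12 of the 14 arrays, it mostly measures spread at background. Muc5ac was the 1 mucin of 8 called there, beside 6.03% of all genes, and was called without each of the 14 arrays in turn (182- to 216-fold). Sto organoids in SI medium had Muc6 at 5.82 and 8.15, against 12.65 and 12.44 in control Sto SCs. The groups did not overlap, but the difference of -5.56 (SE 1.98) did not pass in the fit on all 14 arrays (adjusted p = 0.143). Without the library labelled SI organoids SI med 1 it was called at the same size (limma adjusted p = 7.4e-04), and with only the groups compared in the fit as well (adjusted p = 0.0167). Gastric pit markers other than Muc5ac, 4 of 4 measured, averaged 12.55 and 12.64 in Sto organoids in SI medium, against 6.59 and 6.61 in control Sto SCs, with 1 of the 4 under the array median there. Neck and pyloric gland markers averaged 7.97 and 8.60 in Sto organoids in SI medium, against 11.26 and 11.27 in control Sto SCs. Their 5 members did not move alike: these organoids had Tff2 at 12.80 and 12.90, against 12.11 and 12.05 in control Sto SCs, but Bpifb1 at 6.38 and 7.97, against 11.28 and 11.99 in the SCs, and Cblif at 4.73 on both arrays, against 10.72 and 10.22. The part of both lists in the mucin values was not tested. Medium and sorting cannot be told apart in this comparison, since the methods give Sto medium for the SCs.

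SI organoids in SI medium had Muc2 at 4.07, 11.58 and 11.21, against 7.64, 8.49 and 7.24 in control SI SCs. Muc6 was at 11.16, 4.41 and 3.91 in SI organoids in SI medium, against 11.05, 9.66 and 10.41 in control SI SCs, and Muc13 at 3.57, 11.13 and 11.34, against 10.06, 10.07 and 8.69. In each the first organoid value is that of the library labelled SI organoids SI med 1, and with it the groups overlapped. In limma 0 of 8 mucins were called, beside 0.159% of all genes, with 1 mucin and 1776 genes at an unadjusted p under 0.05. Muc2 differed by 1.17 (SE 1.65), Muc6 by -3.88 (SE 1.61) and Muc13 by -0.92 (SE 1.71). Without that library, Muc2 was 12.2-fold higher in SI organoids (3.61, limma adjusted p = 0.00157), Muc6 74.3-fold lower (-6.22, adjusted p = 2.3e-04) and Muc13 3.10-fold higher (1.63). All of these were called, beside 961 of 18820 genes, in place of 30 with that library. Goblet cell markers averaged 5.74 to 9.78 in SI organoids in SI medium, where the lowest array was that same library, and 7.16 to 7.30 in control SI SCs, and their part in the Muc2 values was not tested.

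Whether stomach and intestine differed to the same degree in organoids and in SCs was tested as the difference between both differences, on all 14 arrays. Muc5ac differed between origins by 7.55 more in organoids in SI medium than in SCs (SE 0.22, limma adjusted p = 5.5e-07), and was the 1 mucin of 8 called, beside 0.845% of all genes. This SE too mostly measures the spread of Muc5ac at background. Its values of 7.42 to 7.67 without each array in turn were all called. For Muc2 this difference was -2.23 (SE 2.61, adjusted p = 0.898), and without the library labelled SI organoids SI med 1 it was -4.67 and called (limma adjusted p = 0.00576). For Muc1 the 95% interval ran from -6.06 to 5.53 and for Muc13 from -4.78 to 7.35, so a difference of either sign was not detectable with these arrays.

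Other mucins and mucin-like proteins were read beside the 8. Of 16 listed genes 11 were measured. Podxl, the sialomucin podocalyxin, was called higher in Cdx2null SI SCs than in control SI SCs (means of 10.05 and 7.58, difference 2.47, SE 0.20, limma adjusted p = 0.00322), and it was the 1 gene of the list called there, beside 1.52% of all genes. In control Sto SCs against control SI SCs Podxl was called higher (2.49) and Muc3, a membrane mucin of enterocytes, lower (3.46 against 6.88, difference -3.42, limma adjusted p = 0.0361), beside 2.86% of all genes. In Cdx2null SI SCs Muc3 averaged 3.50, and its difference of -3.39 from control SI SCs did not pass (adjusted p = 0.0571). The median difference of the list was -0.03 in Cdx2null and -0.01 in control Sto SCs against control SI SCs, and that of all genes 0.03 in both. Mucl3, a mucin-like gene, was called higher in Sto organoids in SI medium than in control Sto SCs (12.73 against 6.14, difference 6.59, SE 0.91, limma adjusted p = 0.00328).

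Of 23 listed enzymes that build the O-linked sugars of mucins 22 were measured, and 1 was called in Cdx2null SI SCs against control SI SCs, beside 1.52% of all genes. Chst4, which adds sulphate to these sugars, was lower (3.84 against 7.64, difference -3.80, SE 0.18, limma adjusted p = 6.9e-04). Control Sto SCs had Chst4 lower by a like amount (-3.79) and also B4galnt3, which adds N-acetylgalactosamine (-1.44, limma adjusted p = 0.0464), so that 2 of 22 were called, beside 2.86% of all genes. A4gnt, which makes the terminal sugar typical of gastric gland mucin, averaged 9.58 in Cdx2null SI SCs and 9.81 in control Sto SCs, against 7.37 in control SI SCs, and neither difference passed (2.21 and 2.44, limma adjusted p = 0.239 and 0.128). The list's median difference was 0.21 and 0.32 in these comparisons, against 0.03 over all genes in both. In Sto organoids in SI medium against control Sto SCs, Galnt7 (1.56), an enzyme that attaches or extends the first sugars, and the sialyltransferase St3gal1 (2.41) were called higher. There A4gnt was called lower (5.17 against 9.81, difference -4.64, limma adjusted p = 0.0202), as was B4galnt4 (-2.76), beside 6.03% of all genes called in either direction.

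Of 19 genes for mucus granules, their assembly and their partner proteins 18 were measured. In Cdx2null SI SCs against control SI SCs, 3 were called higher and 1 lower, beside 1.52% of all genes in either direction. The trefoil peptide Tff2, which is packed with Muc6 in gastric glands, was higher (11.27 against 6.53, difference 4.74, SE 0.22, limma adjusted p = 6.9e-04), as were the secretory transcription factor Spdef (1.30) and Bcas1 (1.24). Tff3, the trefoil peptide of goblet cells, was lower (4.44 against 8.42, difference -3.98, SE 0.28, limma adjusted p = 0.00181). In control Sto SCs against control SI SCs 6 were called higher, among them Tff2 (5.54), Bcas1 (1.64) and Spdef (1.46), and 3 lower, among them Tff3 (-3.89) and the goblet cell peptide Spink4 (-2.81), beside 2.86% of all genes in either direction. The list's median difference was 0.33 and 0.24. In Sto organoids in SI medium against control Sto SCs 5 were called higher and 0 lower, beside 6.03% of all genes in either direction. They were Clca1, a secreted protease of mucus (12.99 against 4.35, difference 8.65, SE 1.25, limma adjusted p = 0.00393), the granule docking protein Sytl2 (4.90), the calpains Capn8 (2.36) and Capn9 (3.92), and the pit cell trefoil peptide Tff1 (5.04). The list's median there was 0.62, against 0.01 over all genes. Of the 8 partners of membrane mucins listed, among them Egfr, Erbb2 and Met, 8 were measured. In each of the 8 comparisons 0 were called, beside 0% to 6.03% of all genes, so 0 of 8 is near that share.

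The genes whose levels over the 14 arrays were most like those of each mucin were found among the 9625 genes that spanned at least 1 log2 unit. Pearson's r describes the likeness only, since the arrays are not 14 independent points: they share organs and culture conditions, and for Muc5ac r rests on the 2 arrays of Sto organoids in SI medium, where it was high. Muc13 was most like Far2 (r = 0.996), Gucy2c, the guanylin receptor of the intestine (0.995), and Ush1c, a scaffold of the brush border (0.993). Muc5ac was most like Shh (0.993), a morphogen of the stomach, Gkn2 (0.992), a pit cell peptide, and Teddm3 (0.989). Muc1 was most like Nexmif (0.987), Ttc8 (0.979) and Epdr1 (0.975). Muc2 was most like Reg4 (0.962), a secreted lectin of the gut, the vitamin D receptor Vdr (0.960) and Cryl1 (0.959). Muc6 was most like Zc3h12c (0.964), Cpn1 (0.955) and Lca5 (0.952). The likeness was weaker for Muc5b (Klhdc1, 0.895), Muc4 (Rapgefl1, 0.867) and Muc20 (Fjx1, 0.840), whose levels varied less.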

How the data were processed

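Each of the 14 RNA samples was read on an Affymetrix Mouse Gene ST 1.1 array. The authors processed the scans in Affymetrix Power Tools by RMA-sketch (background correction, normalisation between arrays and a summary per probe set) and deposited log2 expression values for 35556 probe sets, which entered the tests unchanged. Samples were grouped by their labels. On 2 arrays every value was that of a linear signal rounded to 1 decimal before its log2 was taken (tolerance 0.001), as were at most 0.231% on the others, and their upper quartiles were 7.50 and 7.57, against 7.79 to 7.90. Precision is limited by the few arrays of each group.

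Probe sets with 1 gene symbol (21218) were named through the platform annotation and updated by Entrez ID with RefSeq GRCm38.p6 names. The probe set with the highest mean was kept for each gene, which left 18820 genes. Comparisons were fitted with limma 3.58.1 (lmFit and eBayes, 2-sided) in R 4.3.3, with Benjamini-Hochberg adjustment over all genes. SC comparisons used the 7 SC arrays, origin and medium in organoids an additive fit on the 7 organoid arrays, and organoids against SCs, with the difference between origin effects, all 14 arrays. The script was tested on simulated data. The mucins, the gene lists and the alternatives were chosen with earlier results of these data known. Named are the 8 mucins, called members of the lists (up to 4 per list with the smallest adjusted p) with uncalled members set beside them, and the 3 genes most like each mucin. Marker lists were averaged without the mucins. Alternatives were other normalisations (quantile, array medians), a filter on dim genes, the mean of a gene's probe sets, each array left out, other sets of arrays in the fit, a replicate block, a term for arrays with high Xist, fits without the rounded arrays, and the methods' t-test.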

Additional observations from a re-analysis of the deposited data

Results flagged for a closer look

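The difference of Muc5ac between stomach and intestinal origin was larger in organoids in SI medium than in SCs by 7.55 on the log2 scale (SE 0.22, limma adjusted p = 5.5e-07), which was a test of the difference itself. The SE mostly measures the spread of Muc5ac at background. In organoids in SI medium Muc5ac was at 12.28 and 12.03 for Sto and at 3.47 to 3.88 for SI, and in SCs at 4.60 and 4.45 for control Sto and 3.52 to 3.67 for control SI. Both kinds of sample also differed in medium, as far as the methods state it, and that part was not tested. The single array of Sto organoids in Sto medium had Muc5ac at 3.59. Its Xist was at 3.23, against 11.55 and 11.39 on Sto organoids in SI medium, so it also differed from them in sex.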

How the results depend on the processing

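Of 140 recomputed counts of called mucins 121 stayed within 1.5 times the count in the report, and of 485 recomputed differences of single mucins 430 kept their direction and their side of the threshold. Part of this was fixed in advance. Counts of 0 that stayed 0 are among the 121. Both figures also include fits that left out an array of neither group compared, where the difference itself cannot change. For Cdx2null SI SCs against control SI SCs, 2 mucins were called, and 4 with arrays centred on their medians, 4 of 5 tested after the filter on dim genes, 4 by the methods' t-test before and 0 after adjustment, and 0 with all 14 arrays in the fit. In the same order, 287, 478, 382 (of 9947), 498, 0 and 4 genes were called, of 18820 where not stated. For control Sto SCs against control SI SCs, 3 were called, and 5 by the t-test before and 0 after adjustment, and 0 with all 14 arrays, beside 538, 828, 0 and 29 of 18820 genes. With all 14 arrays but the library labelled SI organoids SI med 1, an alternative chosen after seeing the data, 3 and 3 mucins were called, beside 343 and 622 genes. Leaving out 1 array gave 2 to 3 mucins for both of these comparisons, 0 to 3 for Sto against SI organoids, 0 to 1 for the media, 0 to 3 for SI organoids against control SI SCs, 1 to 2 for Sto organoids against control Sto SCs and 1 to 2 for the difference of origin effects. Between Sto and SI organoids 1 mucin, Muc5ac, was called in SI medium alone, with all 14 arrays in the fit and by the t-test, beside 266, 1148 and 1022 genes. Each of these alternatives compared only the organoids in SI medium. Sto organoids against control Sto SCs had 2 with only the groups compared, beside 1825 genes. Muc2 entered the calls in both comparisons with control SI SCs after quantile normalisation (adjusted p = 0.0447 in Cdx2null and 0.0252 in control Sto SCs). Signs turned for Muc6 between Sto and SI organoids with the replicate block (-0.80), and for Muc2 between SI organoids and control SI SCs without the rounded arrays (-0.23). That block fit left out SI organoids in Sto medium, whose label has no number. Its other terms took up Sto organoids in Sto medium and array 3 of SI organoids in SI medium. The value of -0.80 thus rested on arrays 1 and 2 of both origins in SI medium, with the library labelled SI organoids SI med 1 among them. With 1 array left out, 25 of the 64 differences (8 mucins in 8 comparisons), none of them called on all arrays, took both signs. Among these were Muc1 (-1.34 to 0.17) and Muc20 (-0.74 to 1.97) between Cdx2null and control Sto SCs, Muc1 (-1.58 to 2.16), Muc2 (-0.15 to 3.61) and Muc13 (-2.26 to 1.63) between SI organoids and control SI SCs, and the difference of origin effects for Muc1 (-1.60 to 2.14), Muc6 (-2.97 to 0.65) and Muc13 (-1.27 to 2.62). Replicate numbers were not taken as pairs, since no label says what a number marks. The deviations of all 6 same-numbered pairs of SC arrays correlated positively (0.0716 to 0.404, with 5 of 6 over 0.1). In groups of 2 arrays the deviations mirror each other, so these values are not independent. Whether a number marks a shared batch was not tested. The replicate block gave 3 mucins in each comparison with control SI SCs, with Muc2 in and Muc6 out, 0 elsewhere, and 228 and 500 genes in place of 287 and 538. In both it took up control SI SCs 3, the only SC array of that number, so the differences were those without that array. Centring arrays moved the median of all genes by up to 0.30 and changed the split of called genes from 175 higher and 112 lower to 239 and 239 in Cdx2null SI SCs and from 432 and 703 to 1030 and 554 in Sto organoids against control Sto SCs. Except where a value above shows it, the cause was not tested. Levels under the array median, as for Muc13 in stomach and Cdx2null samples, bound what a fold can show, and groups of 1 to 3 arrays limit every test.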
